A study of Mus musculus with 20 samples.

Results

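The major histocompatibility complex class II pathway was followed in mouse liver through 10 genes: *H2-Ab1*, *H2-Aa*, *H2-Eb1*, *Cd74*, *H2-DMa*, *H2-DMb1*, *H2-Oa*, *H2-Ob*, *Ciita* and *Ctss*. The pathway was chosen by the *H2-Ab1* ratio, which was higher in mice given benzo(a)pyrene (BaP) at 50 mg/kg/day than in controls, and every array probe whose RefSeq accession mapped to one of the 10 symbols was used. Of the 10 genes, 9 had a probe by accession and 8 had a probe whose liver signal was called present, among 12986 genes with a present probe in all. The 8 genes had 13 present probes. *H2-Eb1* had no probe by accession. The 1 probe of *H2-Ob* was not present, with a liver signal well above background on 1 of the 20 arrays.

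Liver RNA came from 20 male Muta™Mouse animals (transgenic strain 40.6), which carry a *lacZ* reporter for scoring mutations, at 25 weeks of age. Groups of 5 received olive oil (control, replicates 1 to 5) or BaP in olive oil by gavage over 28 days. The daily dose was 25 mg/kg for replicates 6 to 10, 50 mg/kg for replicates 11 to 15 and 75 mg/kg for replicates 16 to 20. Livers were collected 3 days after the last dose. Control mice thus carried the same transgene and received the same oil. Each liver sample, labeled with Cyanine 5, was hybridized to 1 array with universal mouse reference RNA from 11 cell lines, labeled with Cyanine 3, and a value below is the log2 ratio of liver over reference unless stated otherwise. A ratio has meaning only within a probe, and ratios of different probes are not compared as levels.

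Class II molecules are pairs of an alpha and a beta chain that show peptides from swallowed material to CD4 T cells. *H2-Aa* and *H2-Ab1* encode the chains of the I-A molecule, and *H2-Eb1* the beta chain of I-E. *Cd74*, the invariant chain, guides new class II molecules to endosomes and blocks the peptide groove. Cathepsin S (*Ctss*) trims the invariant chain to a short remnant, H2-DM (*H2-DMa*, *H2-DMb1*) exchanges that remnant for peptide, and H2-O (*H2-Oa*, *H2-Ob*) restrains H2-DM. *Ciita* encodes the coactivator that switches on class II promoters, where it docks on the RFX, CREB and NF-Y factors bound at the X and Y boxes. In liver the pathway is known from dendritic cells, Kupffer cells, B cells and, at a lower level, sinusoidal endothelial cells.

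The promoter sequence shared by several of these genes is shown because it is what *Ciita* acts through. RefSeq promoters (GRCm38.p6, 250 bases before to 50 after each start) were found for 7 of the 10 genes. None was found for *H2-Ab1*, *Cd74* and *Ciita*, so nothing is shown for the promoter of the gene that chose the pathway. The reference strain is not Muta™Mouse, so an allele may differ. The 5 sequences below run from position -140 to -31 from the start, 5′ to 3′ on the strand of the gene. Capitals mark exact matches, on either strand and at any position, to GATTGG, the Y box core, and to ACNGATG, a piece of the X box. A match to ACNGATG need not lie in an X box, and an X box spelled otherwise stays in lower case. The capitals at the end of the *H2-Eb1* line are a GATTGG on the opposite strand that the stretch cuts short.
H2-Aa, chr17:34287854-34287963, minus strand: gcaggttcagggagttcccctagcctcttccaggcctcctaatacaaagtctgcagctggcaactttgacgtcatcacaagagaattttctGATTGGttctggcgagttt
H2-Eb1, chr17:34305727-34305836, plus strand: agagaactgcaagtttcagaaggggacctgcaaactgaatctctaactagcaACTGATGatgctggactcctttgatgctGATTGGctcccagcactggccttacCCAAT
H2-DMb1, chr17:34153051-34153160, plus strand: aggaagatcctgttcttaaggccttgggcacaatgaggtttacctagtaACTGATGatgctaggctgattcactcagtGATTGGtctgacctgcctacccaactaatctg
H2-Oa, chr17:34092239-34092348, plus strand: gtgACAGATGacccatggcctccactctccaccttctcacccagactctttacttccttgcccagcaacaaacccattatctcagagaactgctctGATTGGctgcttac
H2-Ob, chr17:34238765-34238874, plus strand: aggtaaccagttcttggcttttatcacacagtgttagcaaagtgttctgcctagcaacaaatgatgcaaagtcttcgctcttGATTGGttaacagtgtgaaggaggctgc

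Of the 7 genes with an entry, the 5 printed were those with GATTGG on the gene strand starting between -70 and -40. That all 5 held it was thus fixed by the choice. Its first base lay at -49 (*H2-Aa*), -60 (*H2-Eb1*), -62 (*H2-DMb1*), -44 (*H2-Oa*) and -58 (*H2-Ob*). Over the table of 32851 promoters of the same length, 16.1% held GATTGG on either strand, and 1.88% held it on the gene strand with its first base between -70 and -40, a window chosen after these genes were seen. ACNGATG was held by 9.85% of all promoters on either strand, and in 4 promoters of the table it overlapped a GATTGG. It lay at -91 in *H2-DMb1*, -88 in *H2-Eb1*, -137 in *H2-Oa* and, on the opposite strand, -232 in *H2-Aa*. In *H2-Oa* and *H2-Aa* it lay farther from GATTGG than in *H2-DMb1* and *H2-Eb1*, so these matches may not mark an X box. *Ctss* held only ACNGATG, at -206, and of the 2 starts of *H2-DMa* one held GATTGG, at -199, and the other neither motif. A match is a description of letters and not of a bound site.

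The arrays as a whole differed in depth and in spread. The liver signal stood well above background at 51.9 to 67.5% of spots, the highest share being that of control replicate 4, with at most 62.4% elsewhere, and 0 spots were saturated. Markers of hepatocytes (6 of 8 tested) had a mean ratio between 4.10 and 5.43 on every array, and *Sftpc*, *Sftpb* and *Nkx2-1* of the lung epithelium list were not present. The labels name both lungs and liver, and the samples were taken as liver. The other 3 lung genes, *Sftpa1*, *Scgb1a1* and *Ager*, were present, with a liver signal well above background on 16, 5 and 1 arrays. Their median differences were 0.01, 0.14 and 0.05 at the 3 doses. Arrays lay on 6 slides at 4 positions. Position 2 held all 5 arrays of the lowest dose and position 4 all 5 of the highest. Of the controls 4 occupied position 1, as 4 arrays of the middle dose occupied position 3, so that dose and position cannot be told apart for most arrays.

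*H2-Ab1*, the I-A beta chain, had a higher mean than control in every dose group on all 3 of its probes, and 1 probe passed the test, at the highest dose. The brightest probe, A_52_P683598, gave ratios of 2.22, 2.43, 2.27, 2.19 and 1.64 in control replicates 1 to 5. The ratios were 3.03, 2.64, 2.73, 2.73 and 2.29 at the lowest dose and 2.72, 3.05, 2.64, 2.60 and 2.59 at the middle dose. At the highest dose they were 2.89, 2.85, 2.82, 2.72 and 2.91. Every array of the 2 higher doses lay above all controls, and at 25 mg/kg/day 1 array fell among them. The control mean was 2.15 ± 0.30 (SD, n = 5), and the dose means were 2.69 ± 0.27, 2.72 ± 0.19 and 2.84 ± 0.07.

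The probe A_51_P215237, printed as 10 spots on each array, gave ratios of 1.26, 1.12, 1.05, 1.29 and 0.80 in the controls. It gave 2.05, 1.45, 1.57, 2.12 and 1.46 at the lowest dose and 2.00, 1.91, 1.77, 1.96 and 1.96 at the middle dose. At the highest dose it gave 2.19, 1.99, 1.69, 1.62 and 1.83. No exposed array overlapped the controls on this probe. The dimmest probe, A_51_P215242, ranged from 0.28 to 0.48 in the controls, from 0.56 to 1.46 at 25, from 0.51 to 1.08 at 50 and from 0.42 to 1.21 at 75 mg/kg/day, with 1 array at the highest dose among the controls. Its reference channel was well above background on 4 of 20 arrays.

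**Figure D1:**
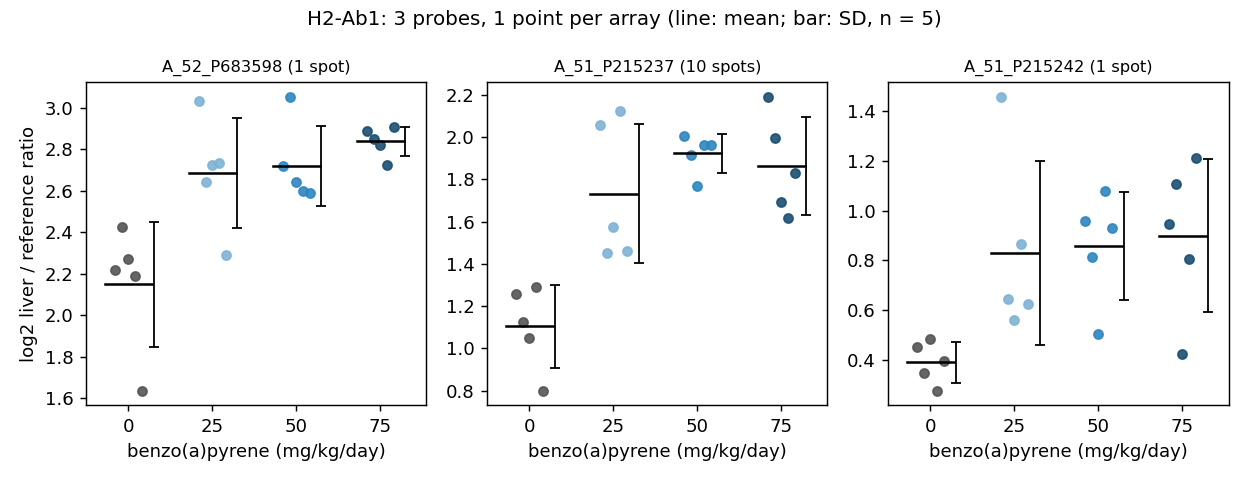
Log2 ratio of liver over reference for the 3 *H2-Ab1* probes by dose, 1 point per array, with the group mean as a line and the SD as a bar (n = 5). On the 10-spot probe the controls reach 1.29 and the lowest exposed array is at 1.45.

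The contrast at 50 mg/kg/day chose the pathway, so its values are given as a description without a test. The log2 differences from control were 0.57, 0.82 and 0.47 for A_52_P683598, A_51_P215237 and A_51_P215242. The other contrasts with control share the same 5 control arrays, so their *H2-Ab1* differences are not independent of that choice. Their tests also take 1 spread from all 4 groups, the 50 mg/kg/day arrays included. On A_51_P215237 the SD was 0.09 at 50 mg/kg/day, against 0.20 in controls and 0.33 and 0.23 at 25 and 75 mg/kg/day. A transcript was called when limma gave a Benjamini-Hochberg adjusted p under 0.05 over all 27345 present probes and the fold change was over 1.5.

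At 75 mg/kg/day 1 of the 13 member probes was called, A_51_P215237 of *H2-Ab1*, where 0.135% of all probes were called. Its log2 difference was 0.76 (SE 0.14, fold change 1.69, adjusted p = 0.0236 by limma), and it ranked 33 of all present probes by p. The brightest probe, which stands for the gene, had a log2 difference of 0.69 (SE 0.14, fold change 1.61) at an adjusted p of 0.0501 by limma and was not called, nor was A_51_P215242 at 0.51 (SE 0.16, adjusted p = 0.250). The call was lost without control replicate 2 (adjusted p = 0.0543), control replicate 5 (0.105), and replicates 16 (0.0651), 17 (0.0888) or 20 (0.0642) of the highest dose. Over all 32 alternative settings the adjusted p ranged from 0.00763 to 0.224, the difference stayed between 0.52 and 0.86, and 22 of the settings called the probe.

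At 25 mg/kg/day 0 of the 13 member probes were called, where 0% of all probes were called by limma and 2134 had an unadjusted p under 0.05 (7.8%), among them 6 of the 13 member probes. The 6 were all probes of *H2-Ab1*, which chose the pathway, both of *H2-Aa*, and A_51_P278868 of *H2-DMb1*. They do not stand for 6 genes, and nothing is read from their share. The *H2-Ab1* log2 differences were 0.54 (SE 0.14), 0.63 (SE 0.14) and 0.44 (SE 0.16), each at an adjusted p of 0.637. A_51_P215237 ranked 7 of all present probes by p in that contrast (unadjusted p = 0.000249). All 5 arrays lay above all controls for 2 of the 13 member probes, where 0.56% of all probes did so, and both were *H2-Ab1* probes. At 75 mg/kg/day the same count was 2, again *H2-Ab1* probes, where 0.936% of all probes did so. At 50 mg/kg/day it was 3, the *H2-Ab1* probes, where 0.516% did so, and nothing is read from that count since the contrast chose the gene.

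The differences in the step from 25 to 75 mg/kg/day use neither the controls nor the dose that chose the gene. The standard errors and tests of this step do use those arrays, since the spread is taken from all groups together. There 0 of the 13 member probes were called, where 0.0549% of all probes were called, and 0 had an unadjusted p under 0.05, where 2.24% of all probes did. For *H2-Ab1* the differences of 75 minus 25 mg/kg/day were 0.15 (SE 0.14), 0.13 (SE 0.14) and 0.07 (SE 0.16). In 0 of the member probes did all 5 arrays of the higher dose lie above all 5 of the lower, where 0.351% of all probes did so. A difference in *H2-Ab1* between the lowest and the highest dose was thus not detected beyond the spread between mice.

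Of the 2 channels behind the ratio, the liver signal of *H2-Ab1* moved more than that of the reference. The channel values were rebuilt from the loess-normalized ratio and the mean intensity of the 2 channels. They were not normalized between arrays, so differences in depth remain in them. On the brightest probe the liver signal had a mean of 9.31 ± 0.39 on the log2 scale in controls and 10.14 ± 0.28, 10.15 ± 0.24 and 10.29 ± 0.14 at the 3 doses (SD, n = 5). The reference channel had means of 7.16 ± 0.28, 7.46 ± 0.14, 7.43 ± 0.31 and 7.45 ± 0.12. On A_51_P215237 the liver means were 7.41 ± 0.22, 8.07 ± 0.27, 8.19 ± 0.16 and 8.23 ± 0.17 and the reference means 6.30 ± 0.06, 6.34 ± 0.12, 6.27 ± 0.11 and 6.36 ± 0.21. With the liver channel tested alone, normalized between arrays, the log2 differences at the 3 doses were 0.56, 0.76 and 0.69 on the brightest probe. They were 0.40 and 0.52 at the lowest and highest dose on A_51_P215237, whose call was then lost (adjusted p = 0.224 by limma, range 0.00763 to 0.224 over its alternatives).

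*H2-Aa*, the partner alpha chain, was placed like *H2-Ab1* but with overlap between groups. Its brighter probe, A_51_P119760, gave ratios of 0.91, 0.39, 0.50, 1.07 and 0.39 in controls and 1.37, 0.82, 1.37, 1.49 and 1.27 at the lowest dose. It gave 1.09, 0.91, 1.05, 1.64 and 1.53 at the middle and 1.56, 1.22, 1.64, 0.74 and 1.05 at the highest dose. The exposed arrays above the highest control numbered 4, 3 and 3 of 5. The log2 differences were 0.61 (SE 0.19, adjusted p = 0.637 by limma), 0.59 (no test) and 0.59 (SE 0.19, adjusted p = 0.255 by limma). The second probe, A_52_P343306, gave 0.49, 0.53 and 0.53 and was not called at either tested dose. Its reference channel was well above background on 1 of 20 arrays, and that of A_51_P119760 on 12. The difference of 75 minus 25 mg/kg/day was -0.02 (SE 0.19) and 0.04 (SE 0.22) on the 2 probes.

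*Cd74*, the invariant chain, had ratios of -0.60, -0.27, -0.67, -0.73 and -0.97 in controls. They were -0.10, -0.68, -0.34, -0.54 and -0.49 at 25, -0.33, -0.35, 0.06, -0.26 and -0.40 at 50, and -0.16, -0.51, -0.60, -0.54 and -0.45 at 75 mg/kg/day. The groups overlapped throughout. The differences were 0.21 (SE 0.13, adjusted p = 0.693 by limma), 0.39 (no test) and 0.19 (SE 0.13, adjusted p = 0.602 by limma), and those at 25 and 75 mg/kg/day turned to -0.13 and -0.07 with the liver channel alone.

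**Figure D2:**
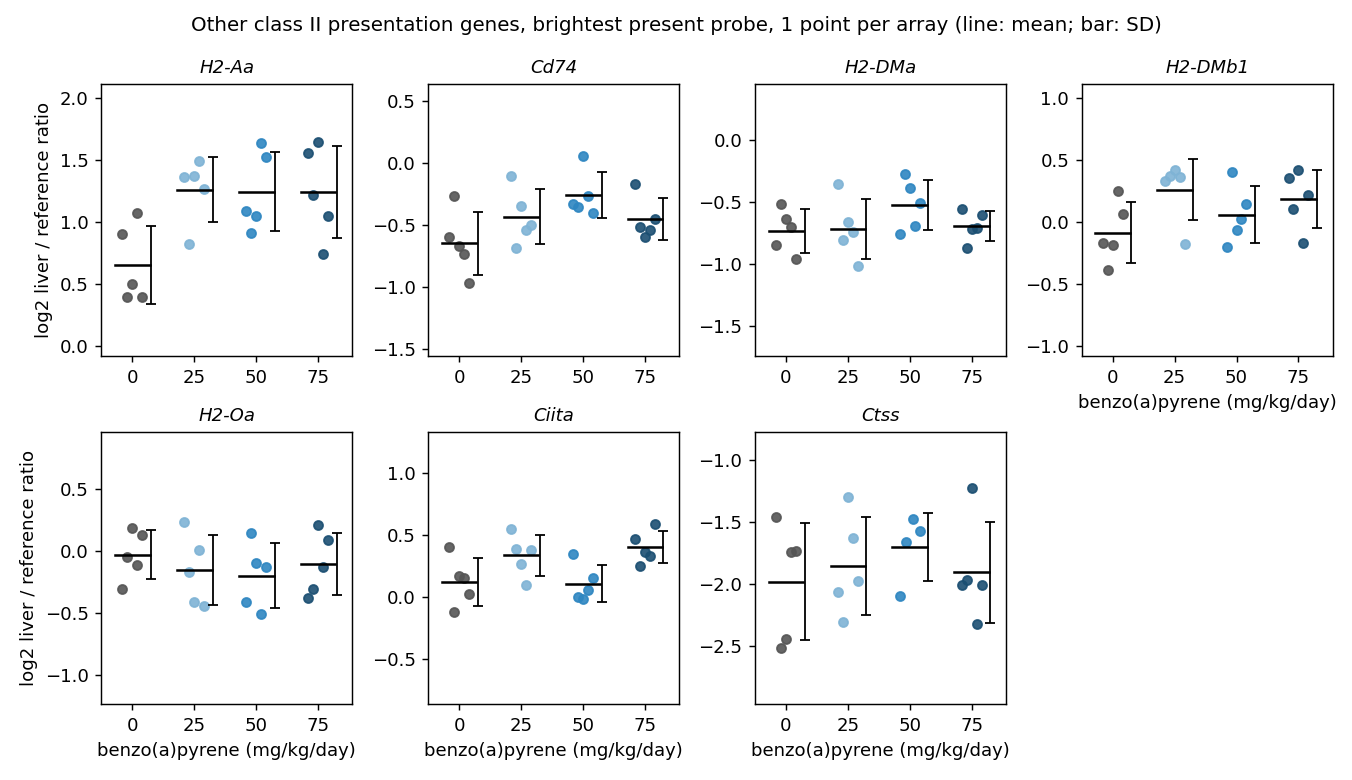
Log2 ratio of liver over reference for the brightest present probe of the other 7 measured genes by dose, 1 point per array, with the mean as a line and the SD as a bar (n = 5, and n = 4 for *Ctss* at 50 mg/kg/day). Each panel spans 2.2 log2 units, and for every gene the exposed arrays overlap the controls.

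The peptide exchange genes differed little from control. For *H2-DMa* the group means were -0.73 ± 0.18, -0.72 ± 0.24, -0.52 ± 0.20 and -0.69 ± 0.12 (SD, n = 5), and its differences of 0.02 and 0.04 at 25 and 75 mg/kg/day (SE 0.12) were within the spread. *H2-DMb1* was measured by 2 probes. On A_51_P278868 the controls were at -0.17, -0.39, -0.19, 0.25 and 0.06 and the arrays of 25 mg/kg/day at 0.33, 0.37, 0.42, 0.36 and -0.18, so that 4 of 5 lay above all controls. The difference was 0.35 (SE 0.15, adjusted p = 0.637 by limma) at 25 and 0.27 (SE 0.15, adjusted p = 0.50 by limma) at 75 mg/kg/day. The other probe, A_52_P146877, had differences of 0.09 and 0.05 (SE 0.11), which turned to -0.05 and -0.06 without background correction.

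*H2-Oa*, a subunit of the H2-DM inhibitor, was the 1 gene whose mean was below control at every dose, though not beyond the spread. Its differences were -0.13, -0.17 and -0.07 (SE 0.15) on A_51_P449325, the last turning to 0.04 with median centring, and -0.13, -0.08 and -0.11 (SE 0.12) on A_51_P449329. *H2-Ob*, its partner, was near the background: its ratios lay between -0.25 and 0.19 on all 20 arrays, where both channels were dim.

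*Ciita*, the coactivator, had ratios of 0.40, -0.12, 0.17, 0.15 and 0.02 in controls and 0.55, 0.39, 0.27, 0.10 and 0.38 at 25 mg/kg/day. It had 0.35, 0.00, -0.02, 0.06 and 0.15 at 50 and 0.47, 0.25, 0.36, 0.34 and 0.59 at 75 mg/kg/day. With the normalization used here the middle dose lay with the controls, and the other doses had higher means with overlap. Its liver signal cleared the background on 2 of 5 control arrays and on 5, 4 and 5 arrays at the doses. The differences were 0.21 (SE 0.11, adjusted p = 0.650 by limma), -0.02 (no test) and 0.28 (SE 0.11, adjusted p = 0.343 by limma). With processed signals centred on the median the differences became 1.14, 0.52 and 1.27, so that the place of the middle dose depended on the signal used.

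*Ctss*, the protease of the invariant chain, had the largest standard error of the members, with ratios from -2.52 to -1.46 in controls and from -2.32 to -1.23 at 75 mg/kg/day. Its differences were 0.13 and 0.07 at 25 and 75 mg/kg/day (SE 0.23) and 0.28 at 50 mg/kg/day, where the spot of replicate 13 was marked as an outlier and left out.

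**Figure D3:**
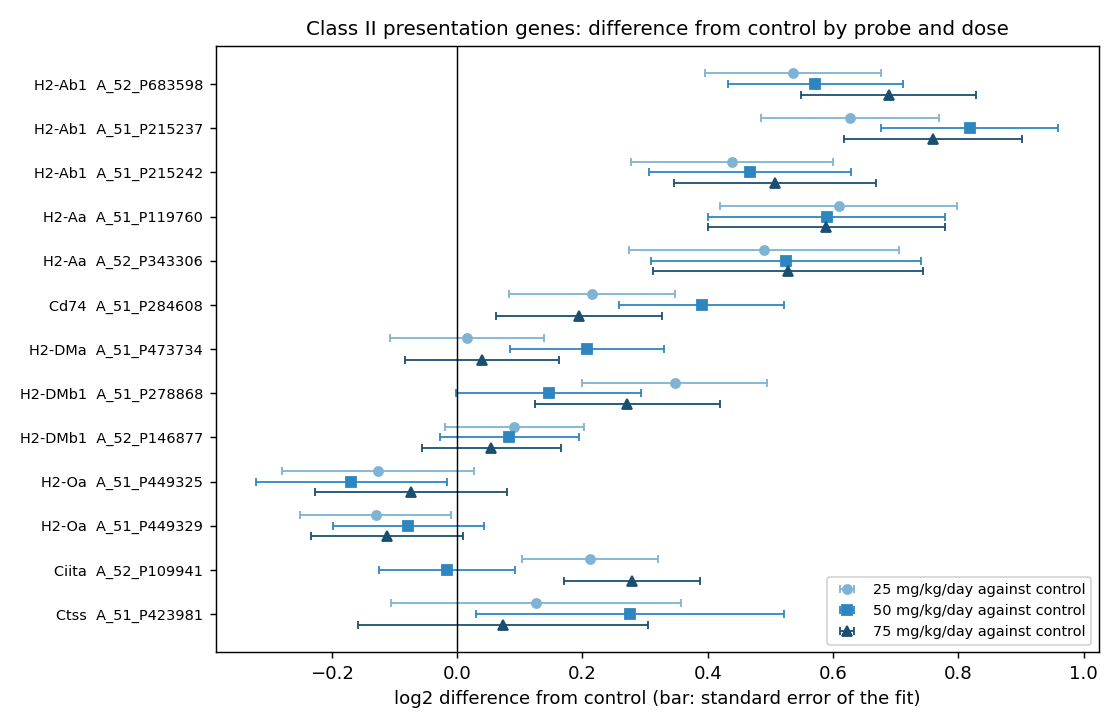
Log2 difference from control for each of the 13 present probes at the 3 doses, with the standard error of the limma fit as a bar. The 3 *H2-Ab1* and 2 *H2-Aa* probes lie between 0.44 and 0.82, while the differences of the other genes lie between -0.17 and 0.39.

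With 1 probe standing for each of the 8 genes, 7 of 8 had a higher mean than control at 25, 6 at 50 and 7 at 75 mg/kg/day. The median log2 differences were 0.21, 0.24 and 0.23, where the median over all present probes was 0.0009, -0.003 and 0.003. Between 75 and 25 mg/kg/day 4 of 8 were higher and the median was 0.002. Without *H2-Ab1*, which chose the pathway, 6, 5 and 6 of 7 genes had a higher mean than control, with medians of 0.21, 0.21 and 0.19, where 50.3, 49.2 and 50.6% of all present probes were positive. The 3 contrasts share their 5 control arrays, so these counts do not add up as separate evidence.

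The difference could also be read within slides, each of slides 1 to 3 holding 1 array of every group and slide 6 holding 2 of control and 2 of 50 mg/kg/day. On A_51_P215237 *H2-Ab1* exceeded the control of the same slide in 3 of 3 slides at 25 mg/kg/day, by 0.20 to 0.83, and in 3 of 3 at 75 mg/kg/day, by 0.70 to 0.93. At 50 mg/kg/day, the contrast that chose the pathway, it did so in 4 of 4, by 0.67 to 1.16, which is a description only. At 25 and 75 mg/kg/day the other *H2-Ab1* probes were also higher in 3 of 3 slides. The differences were 0.07 to 1.09 and 0.66 to 1.19 on A_52_P683598, and 0.17 to 0.59 and 0.03 to 0.83 on A_51_P215242. On A_51_P119760 *H2-Aa* was higher in 3 of 3, 4 of 4 and 3 of 3 slides, by 0.36 to 0.98, 0.19 to 1.25 and 0.14 to 1.25. On its other probe, A_52_P343306, it was higher in 3 of 3, 4 of 4 and 2 of 3 slides, with a difference of -0.13 on slide 1 at the highest dose. Nothing is read from these counts of slides, since the share over all probes was not computed. On slides 1 to 3 the same 1 control array also serves all doses. Slides 4 and 5 held arrays of only 25 and 75 mg/kg/day. With slide as a random block (correlation within slides 0.243) the brightest *H2-Ab1* probe was called as well, at a difference of 0.72 (adjusted p = 0.0154 by limma, range 0.0154 to 0.325 over its 33 alternatives).

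**Figure D4:**
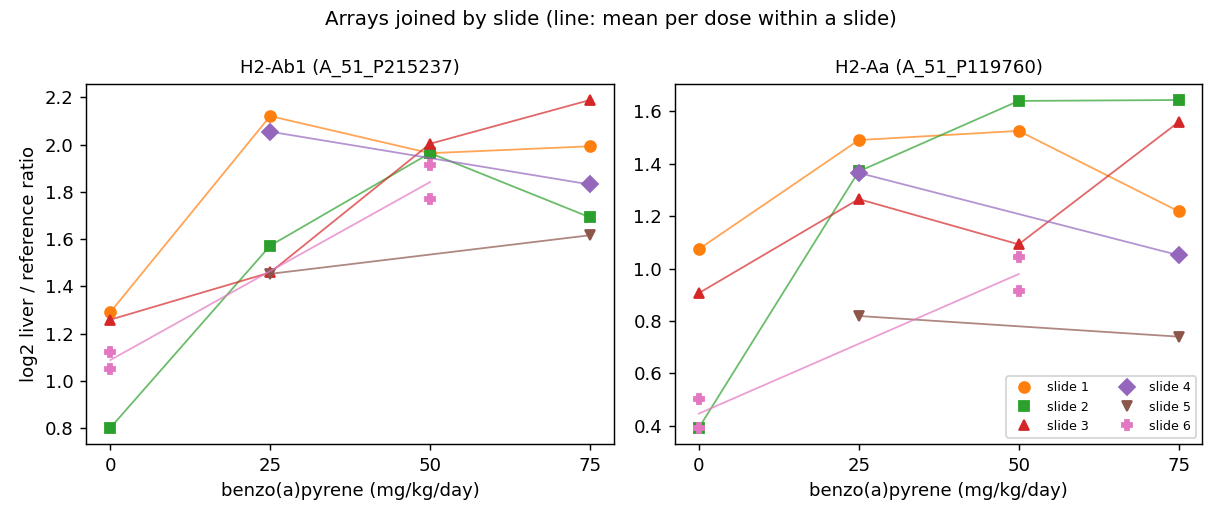
Log2 ratio of the 10-spot *H2-Ab1* probe and the brighter *H2-Aa* probe by dose, 1 point per array, with arrays of the same slide in 1 color and joined by their mean per dose. In both panels the exposed arrays of slides 1, 2, 3 and 6 lie above the control arrays of the same slide. For *H2-Ab1* the values at 50 mg/kg/day are those that chose the pathway.

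Position on the slide was not balanced over the doses, and its part in the result was not tested. Control replicate 2 was the only control at position 2, where all arrays of 25 mg/kg/day lay. On A_51_P215237 it had a ratio of 1.12, where those arrays had 1.45 to 2.12, and on A_52_P683598 it had 2.43, within their 2.29 to 3.03.

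Across all probes, the ratios of the exposed arrays were also spread wider on average than those of the controls, with overlap between single arrays. The slope of an array's ratios on the mean ratio over the 20 arrays was 0.93 to 1.00 in controls and 0.99 to 1.06, 0.97 to 1.04 and 0.98 to 1.05 at the 3 doses. Mean slopes were 0.97 in controls and 1.02, 0.99 and 1.02 at the doses. Probes with a high mean ratio, like those of *H2-Ab1* (2.60 on A_52_P683598 and 1.66 on A_51_P215237), were on the whole higher on exposed arrays. The 869 present probes with a mean ratio from 2 to 3 had median differences of 0.12, 0.06 and 0.09 at the 3 doses, and the 2398 probes from 1 to 2 had 0.10, 0.01 and 0.09. When each array's ratios were divided by its slope, an alternative added after the data were seen, A_51_P215237 had a difference of 0.69 at 75 mg/kg/day (adjusted p = 0.0656 by limma) and A_52_P683598 one of 0.56 (adjusted p = 0.135 by limma), and neither was called (ranges over alternatives 0.00763 to 0.224 and 0.0154 to 0.325).

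**Figure D5:**
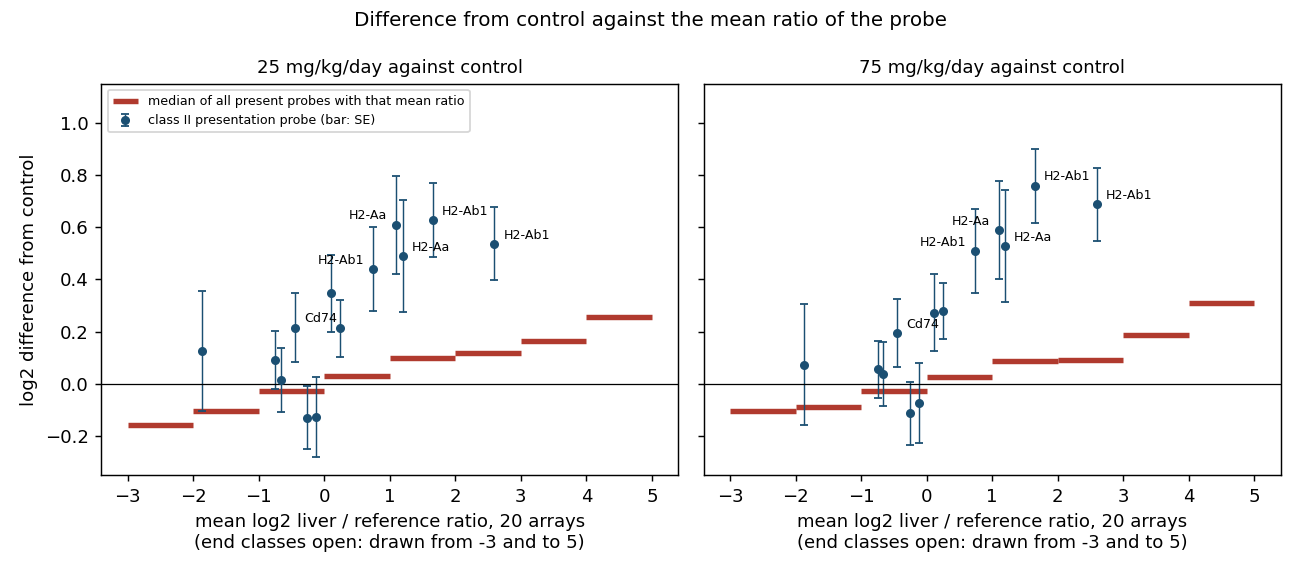
Log2 difference from control at 25 and 75 mg/kg/day against the mean log2 ratio of the probe over the 20 arrays. Points are class II probes with their standard error, and bars are the median of all present probes in each class of mean ratio, which rises from -0.16 to 0.26 at 25 mg/kg/day and from -0.10 to 0.31 at 75 mg/kg/day. The *H2-Ab1* and *H2-Aa* points lie above the bars.

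The other genes of the pathway were described by lists, whose genes were tested against control at 25 and 75 mg/kg/day and given as values at 50 mg/kg/day. Of the 7 regulators that act with *Ciita* (*Rfx5*, *Rfxap*, *Rfxank*, *Nfya*, *Nfyb*, *Nfyc*, *Creb1*), 0 were called and the median differences were -0.08, -0.04 and 0.00 at the 3 doses. At 75 mg/kg/day they ran from -0.22 for *Rfxank* to 0.39 for *Nfyb*. Of the 3 other class II chains, *H2-Ea* had no probe by accession, and *H2-Eb2* and *H2-DMb2* were not present. The 11 genes of endosomal processing had medians of 0.10, 0.12 and 0.16 and 0 were called. *Ctsd*, an aspartic protease of lysosomes, had 5 of 5 arrays above all controls at 75 mg/kg/day and a difference of 0.43 (adjusted p = 0.0177 by limma), which is under the fold limit of 1.5, and *Ctsl* was lowest at -0.31.

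No gene of upstream and neighboring pathways was called at either tested dose. Of 8 genes of interferon gamma signalling, the main inducer of *Ciita* in most cells, *Ifng* was not present and 0 of the other 7 were called, with medians of -0.04, -0.02 and 0.02. At 75 mg/kg/day they ran from -0.22 for *Socs1*, an inhibitor of cytokine signalling, to 0.17 for *Jak2*, a kinase of the receptor. Class I presentation (9 of 13 genes tested) had medians of -0.10, 0.08 and 0.00 with 0 called, *B2m* being highest at 0.42 and *Tap2* lowest at -0.23 at 75 mg/kg/day. Costimulation (3 of 5 tested) had medians of -0.16, -0.18 and -0.08 with 0 called, and *Cd86* was lowest at -0.32. The liver signal of *Cd86* was well above background on only 6 arrays, and 1 of the 3 tested genes had such a signal on all arrays.

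Markers of cells that carry class II molecules were measured in the same bulk RNA, in which more cells of a type and more RNA per cell cannot be told apart. The dendritic cell list (8 of 10 tested, *Cd209a* and *Siglech* not present) had a mean ratio of -0.02 to 0.08 in controls. It was -0.07 to 0.02, -0.07 to 0.12 and -0.02 to 0.14 at the 3 doses, with 0 genes called at the 2 tested doses. Only 4 of the 8 had a liver signal well above background on all arrays. *Ccr7* had it on 0 arrays, *Flt3* and *Clec9a* on 3 each and *Itgax* on 15, so a change in these 4 could be missed. In the B cell list *Cd79a*, *Pax5*, *Cd22*, *Blk* and *Fcrla* were not present, and the mean of the 5 tested genes was -1.18 to -0.75 in controls and -1.07 to -0.92, -1.10 to -0.72 and -1.05 to -0.69 at the 3 doses, with 0 called at the tested doses. T cell markers (8 of 9 tested) had medians of -0.21, -0.06 and -0.12 with 0 called. The liver signal was well above background on all arrays for 2 of the 5 B cell and 5 of the 8 T cell genes tested.

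Kupffer cell, sinusoidal endothelial and hepatocyte markers had positive median differences at every dose. The 11 Kupffer and macrophage markers tested had a mean ratio of 2.41 to 2.74 in controls and 2.54 to 2.97, 2.54 to 3.22 and 2.49 to 3.05 at the 3 doses, with median differences of 0.18, 0.12 and 0.12. In that list 1 gene was called, *Marco*, a scavenger receptor, at 2.19 (SE 0.30, adjusted p = 0.00148 by limma) at 75 mg/kg/day. The other 10 lay between -0.34 and 0.35 at that dose. *Csf1r*, a growth factor receptor of macrophages, was at -0.30 and *Cd163*, a hemoglobin scavenger receptor, at -0.34. Each had 4 of 5 arrays below all controls and 1 above all controls. Nothing is read from these counts, since the share over all probes was not computed. *Vsig4*, *Timd4* and *Adgre1* were at 0.03, 0.05 and 0.08. The 8 sinusoidal endothelial markers had 3.05 to 3.67 in controls and 3.48 to 4.11, 3.60 to 3.94 and 3.76 to 4.32, with median differences of 0.34, 0.29 and 0.34, and 1 was called, *Lyve1*, a hyaluronan receptor, at 2.23 (SE 0.40, adjusted p = 0.0189 by limma). The 6 hepatocyte markers had median differences of 0.36, 0.30 and 0.46 with 0 called. These 3 lists have mean ratios above 2, and their part in the *H2-Ab1* result was not tested.

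Among arrays, the 2 *H2-Aa* probes followed each other closely (r = 0.90 over 20 arrays and 0.85 after removal of group means). The 10-spot *H2-Ab1* probe and the brighter *H2-Aa* probe had r = 0.77 over the arrays and 0.55 after removal of group means, and *Cd74* and *H2-DMa* had 0.68 and 0.64. The brightest *H2-Ab1* probe and that *H2-Aa* probe had 0.53 and 0.02. All probes on an array share its normalization and depth. Of 12809 genes with a value on every array, the 10 outside the pathway whose ratio was most like that of the brightest *H2-Ab1* probe were *Cryzl2*, *Fasn*, *Seh1l*, *Gpihbp1*, *Gamt*, *Icam2*, *Rpl10*, *Rpl36*, *Tmem184a* and *Rnf128*, at r between 0.76 and 0.81. Among members *Cd74* had the highest r over the 20 arrays, 0.63. With group means removed it was *H2-DMa*, at 0.78 (*Cd74* 0.54), and with slide means removed *H2-Aa*, at 0.81 (*Cd74* 0.68).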

How the data were processed

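RNA from 20 livers, 5 per dose group, was measured on two-color arrays. The authors deposited scanner intensities (median spot and background brightness, linear and without normalization), processed intensities from the same software, and LOWESS-normalized log2 ratios. The direction, Cyanine 5 liver over Cyanine 3 reference, follows the labels. These deposited log2 ratios correlated with the ratios made here at r between 0.994 and 0.996, and they match ratios without background correction. Their scale and direction are thus settled, and no gene centring was seen.

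Median intensities were corrected by normexp (offset 50), normalized by loess with limma 3.58.1 in R 4.3.3 with outlier spots left out, and replicate spots were averaged (41174 probes). Presence followed the rule of the methods (trimmed mean plus 3 trimmed SDs of 153 negative control spots, trim 5%, in at least 4 of 5 arrays of a group), which left 27345 probes. Symbols came from RefSeq accessions (23374 probes). The present probe of highest intensity stands for a gene.

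All 20 arrays entered 1 limma model with 4 groups. The methods removed 1 array that they do not name, and used MAANOVA, which was not used here. Each of the 5 animals of a group was 1 array, and the number of arrays limits the precision. The model was tested on simulated data. Alternatives covered background correction, normalization, probe filters, slide, the samples in the model, the probe of a gene and each array left out. Members, lists (class II regulators, other class II chains, endosomal processing, costimulation, interferon gamma signalling, class I presentation and 7 marker lists) and tests were chosen with earlier results of these data known. Genes named beside the 10 members were those called, the highest or lowest of a list and the 10 most alike by r, and a few others chosen after their values were seen.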

Additional observations from a re-analysis of the deposited data

Results flagged for a closer look

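Among 52 sets of 4 or 5 arrays (13 probes in 4 groups), 2 had an array far from the rest of its group by Dixon's test, which flags about 1 set in 20 by chance. The brightest *H2-Ab1* probe was at 3.05 in replicate 12 of 50 mg/kg/day, above the 2.59 to 2.72 of the other 4 arrays. The *H2-DMb1* probe A_51_P278868 was at -0.18 in replicate 10 of 25 mg/kg/day, below the 0.33 to 0.42 of the other 4.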

How the results depend on the processing

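Mice could not be paired by replicate number, because the numbers run from 1 to 20 and the groups share none. Slides, of which 4 hold arrays of both control and exposed mice, served as a block in place of such pairs. The *H2-Ab1* differences from control were positive under every alternative run, which covered the 3 probes at the lowest and highest dose and only the brightest probe at the middle dose. At 75 mg/kg/day the count of called members, 1, became 0 with processed signals centred on the median, median centring, the liver channel alone, only the 2 groups of the contrast and ratios scaled to 1 spread (added after the data were seen). It became 2 without background correction, with the authors' LOWESS ratios, the filter on probes well above background, and slide as a random or fixed block, and lay between 0 and 2 with single arrays left out, at 0 without control replicate 5 or replicates 16, 17 or 20, and at 2 without replicates 6, 10, 12 or 19. Calls over all probes at 75 mg/kg/day, 37, became 58 with processed signals, 16 with median centring, 62 and 58 with slide as a random and fixed block (50 higher and 8 lower in the latter) and 5 with only the 2 groups, and lay between 25 and 72 with single arrays left out, the 72 without replicate 19. For 75 against 25 mg/kg/day the 15 calls became 3 with median centring, 30 with slide as a random block and 6 with only the 2 groups, and lay between 4 and 21 with single arrays left out (4 without replicates 10, 17 or 18, 5 without 9, 8 without 6 and 9 without 7). At 25 mg/kg/day 0 probes were called, and 0 to 2 with single arrays left out, the 2 without control replicate 3. Median centring moved the median of all probes to 0.11 and 0.10 at 25 and 75 mg/kg/day. Members called at 25 mg/kg/day and for 75 against 25 mg/kg/day stayed at 0 throughout. Among tested differences, directions turned only for some that were not called. *Ciita* at 50 mg/kg/day, not tested, was -0.02 and positive in 7 of 33 alternatives, at most 0.52 (processed signals). *H2-DMb1* A_52_P146877 became -0.048 and -0.059 at 25 and 75 mg/kg/day without background correction, and -0.027 and -0.051 with the authors' ratios. *Cd74* became -0.13 and -0.075 with the liver channel alone, and *H2-Oa* A_51_P449325 0.044 at 75 mg/kg/day with median centring. For 75 against 25 mg/kg/day *H2-Aa* A_51_P119760 became 0.0061 without background correction, 0.0049 with the authors' ratios and 0.0012 with the liver channel alone, and A_52_P343306 -0.13 with processed signals. With single arrays left out, *H2-DMa* ranged from -0.075 to 0.091 and from -0.018 to 0.094, and *Ctss* from -0.014 to 0.26 and from -0.096 to 0.20, at 25 and 75 mg/kg/day, and *H2-DMb1* A_52_P146877 from -0.014 to 0.11 at 75 mg/kg/day. For 75 against 25 mg/kg/day the ranges were -0.0098 to 0.22 for *H2-Ab1* A_51_P215242, -0.13 to 0.11 for *H2-Aa* A_51_P119760 and -0.11 to 0.15 for A_52_P343306. The cause of these changes was not tested.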
